A study of Mus musculus with 7 samples.

Results

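The genes described here are 9 non-classical MHC class I and CD1 family genes, H2-Q4, H2-Q6, H2-Q7, H2-T22, H2-T23, H2-T24, H2-M3, Cd1d1 and Mr1. They were chosen by symbol from the 53465 genes of the count table. The kidneys came from MRL/lpr mice, which carry a defective Fas gene and develop a spontaneous lupus-like disease with nephritis. In 4 mice AZD1152 (barasertib) had been given, which the body converts into an inhibitor of Aurora kinase B, and 3 mice had received vehicle. Fas deficiency is shared by both groups, and the dose, the schedule and the age of the mice were not given in the labels. Each mouse gave 1 library of poly(A)-selected RNA from whole renal tissue, measured as reads counted for each gene. The libraries held 14692113 to 17036862 counts in AZD1152 kidneys, against 16195173 to 16930859 in vehicle kidneys. Mitochondrial transcripts took 9.41% to 11.6% of the counts in AZD1152 kidneys, highest in replicate 2, and 8.03% to 9.0% in vehicle kidneys. The tissue label was checked with proximal tubule markers, whose summed level was 11000 to 12800 CPM (read counts scaled to the library size with TMM) in AZD1152 kidneys, against 8020 to 9580 CPM in vehicle kidneys. Of 7 such markers 2 rose, Slc5a2 and Slc34a1, and 0 fell.

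MHC class I molecules consist of a heavy chain and the light chain beta-2 microglobulin. The classical heavy chains are highly polymorphic and show cytosolic peptides to CD8 T cells. The non-classical (class Ib) heavy chains are less polymorphic and mostly serve narrower tasks. H2-T23 encodes Qa-1, which carries leader peptides of classical class I molecules to the CD94/NKG2A receptor of natural killer cells and some CD8 T cells. H2-M3 binds N-formylated peptides, such as those of bacteria and mitochondria. H2-T22 is recognised directly by some gamma-delta T cells. H2-Q6 and H2-Q7 belong to the genes that encode Qa-2. Cd1d1 encodes CD1d, which presents lipids to natural killer T cells, and Mr1 encodes a carrier of vitamin B metabolites for mucosal-associated invariant T cells. Many class I heavy chain genes are raised by interferon-gamma and by the transactivator NLRC5.

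The H2 members lie in the Q, T and M regions of the mouse MHC on chromosome 17 (GRCm38). H2-Q4 (ENSMUSG00000035929) spans 35379617 to 35385290, H2-Q6 (ENSMUSG00000073409) 35424850 to 35430055 and H2-Q7 (ENSMUSG00000060550) 35439155 to 35443773, all on the plus strand. H2-T24 (ENSMUSG00000053835) spans 36005695 to 36020560, H2-T23 (ENSMUSG00000067212) 36029773 to 36032855 and H2-T22 (ENSMUSG00000056116) 36037128 to 36042747, all on the minus strand. H2-M3 (ENSMUSG00000016206) spans 37270220 to 37274484 on the plus strand. Outside the MHC, Cd1d1 (ENSMUSG00000028076) lies on chromosome 3, 86995834 to 86999441, and Mr1 (ENSMUSG00000026471) on chromosome 1, 155127277 to 155146814, both on the minus strand. All 9 are annotated as protein-coding.

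Promoter windows of 250 bases before to 50 bases after the RefSeq start (GRCm38.p6) were available for 7 of the 9 genes. They are shown for H2-Q4 and H2-M3, the tested members with the largest log2 differences between the groups, for the abundant T region genes H2-T22 and H2-T23, and for Mr1, which lies outside the MHC. The windows are chr17:35379367-35379666 (plus strand), chr17:37269984-37270283 (plus strand), chr17:36042693-36042992 (minus strand), chr17:36032652-36032951 (minus strand) and chr1:155146765-155147064 (minus strand). Capitals mark matches, on either strand, to 5 motifs. These are TTTCNNTTC, the core of the interferon-stimulated response element; AANNGAAA, the consensus of interferon regulatory factors; TTCNNNGAA, the gamma-activated site; GGGNNTNCC, a core of NF-kB sites; and CCAAT.
H2-Q4: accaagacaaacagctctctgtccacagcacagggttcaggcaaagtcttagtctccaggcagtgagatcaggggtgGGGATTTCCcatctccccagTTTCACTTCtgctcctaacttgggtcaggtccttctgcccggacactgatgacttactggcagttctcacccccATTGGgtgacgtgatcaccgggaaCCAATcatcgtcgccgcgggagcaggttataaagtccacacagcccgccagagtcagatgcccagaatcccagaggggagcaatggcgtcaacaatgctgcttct
H2-M3: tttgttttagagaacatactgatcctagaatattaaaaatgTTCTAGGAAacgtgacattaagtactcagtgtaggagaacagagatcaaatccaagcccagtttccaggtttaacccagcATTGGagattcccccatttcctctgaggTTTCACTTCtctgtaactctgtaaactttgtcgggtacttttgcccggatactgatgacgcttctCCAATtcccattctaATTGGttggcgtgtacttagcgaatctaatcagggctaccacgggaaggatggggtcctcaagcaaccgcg
H2-T22: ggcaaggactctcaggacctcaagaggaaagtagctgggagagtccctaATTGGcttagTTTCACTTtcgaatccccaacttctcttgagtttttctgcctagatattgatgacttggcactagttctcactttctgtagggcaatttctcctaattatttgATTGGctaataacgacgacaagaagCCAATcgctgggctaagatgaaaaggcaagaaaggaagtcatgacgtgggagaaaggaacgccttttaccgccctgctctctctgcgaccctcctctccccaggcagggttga
H2-T23: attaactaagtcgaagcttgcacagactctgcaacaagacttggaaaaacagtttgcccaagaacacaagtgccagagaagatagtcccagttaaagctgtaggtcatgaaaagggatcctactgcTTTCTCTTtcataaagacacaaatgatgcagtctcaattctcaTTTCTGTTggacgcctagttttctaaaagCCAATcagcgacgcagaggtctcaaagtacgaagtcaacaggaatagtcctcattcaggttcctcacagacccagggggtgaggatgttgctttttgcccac
Mr1: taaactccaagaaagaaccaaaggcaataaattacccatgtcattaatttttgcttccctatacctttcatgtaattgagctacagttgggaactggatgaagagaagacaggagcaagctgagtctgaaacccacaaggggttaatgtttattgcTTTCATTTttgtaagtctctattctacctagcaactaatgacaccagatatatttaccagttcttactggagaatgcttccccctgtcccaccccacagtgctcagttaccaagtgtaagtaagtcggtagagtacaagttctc
The response element core stood in 4 of the 7 windows (H2-Q4, H2-Q6, H2-Q7 and H2-M3) and in 7.52% of 32851 mouse promoter windows. The shorter interferon regulatory factor consensus was added after the promoter letters and the matches to that core had been seen, so its count is less informative. It stood in 7 of the 7 windows and in 23.9% of all windows, and every match to the core is also a match to it by construction, since the core holds its reverse complement. The shared match began 153 bases before the start in H2-Q4 and 101 bases before it in H2-M3. The gamma-activated site was in the H2-M3 window and in 8.3% of all windows. The NF-kB core was in the windows of H2-Q4, H2-Q6 and H2-Q7 and in 16.4% of all windows. These Q region genes are related, with coding bases 83.9% to 95.1% identical. Their shared matches to this core and to the response element core are therefore not independent. CCAAT was in 6 of the 7 windows, all but that of Mr1, and in 37.4% of all windows. The letters are those of the reference genome, and binding was not measured.

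Most of the non-classical class I genes with measurable reads were lower in AZD1152 kidneys than in vehicle kidneys. Of the 9 genes 7 had enough counts to be tested, with at least 24 counts in every library. Of these 7, H2-Q4, H2-T22, H2-T24, H2-M3 and Mr1 fell, 0 rose, and H2-T23 and Cd1d1 missed the threshold (edgeR quasi-likelihood test, Benjamini-Hochberg adjusted p under 0.05 over 15774 genes). Over all genes tested, 4.81% were called lower and 3.02% higher, 759 and 476 genes. In 6 of the 7 members every AZD1152 library was below every vehicle library, an arrangement found in 11.6% of all genes tested. The median log2 fold change of the 7 was -0.77, against -0.001 over all genes tested. Scaling by total counts moved that overall median to -0.151 and gave 1482 lower and 232 higher genes, with 6 of the 7 members lower. The number of members called lower was 1 without vehicle replicate 3, and 2 without vehicle replicate 1, vehicle replicate 2 or AZD1152 replicate 4. It was 5 without AZD1152 replicate 2 and 4 without AZD1152 replicate 1 or 3. Over all genes the lower calls numbered 163 without vehicle replicate 3, 272 without vehicle replicate 1 and 336 without AZD1152 replicate 4, but 619 without vehicle replicate 2. In whole kidney, fewer cells of a type and less RNA per cell cannot be told apart.

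**Figure D1:**
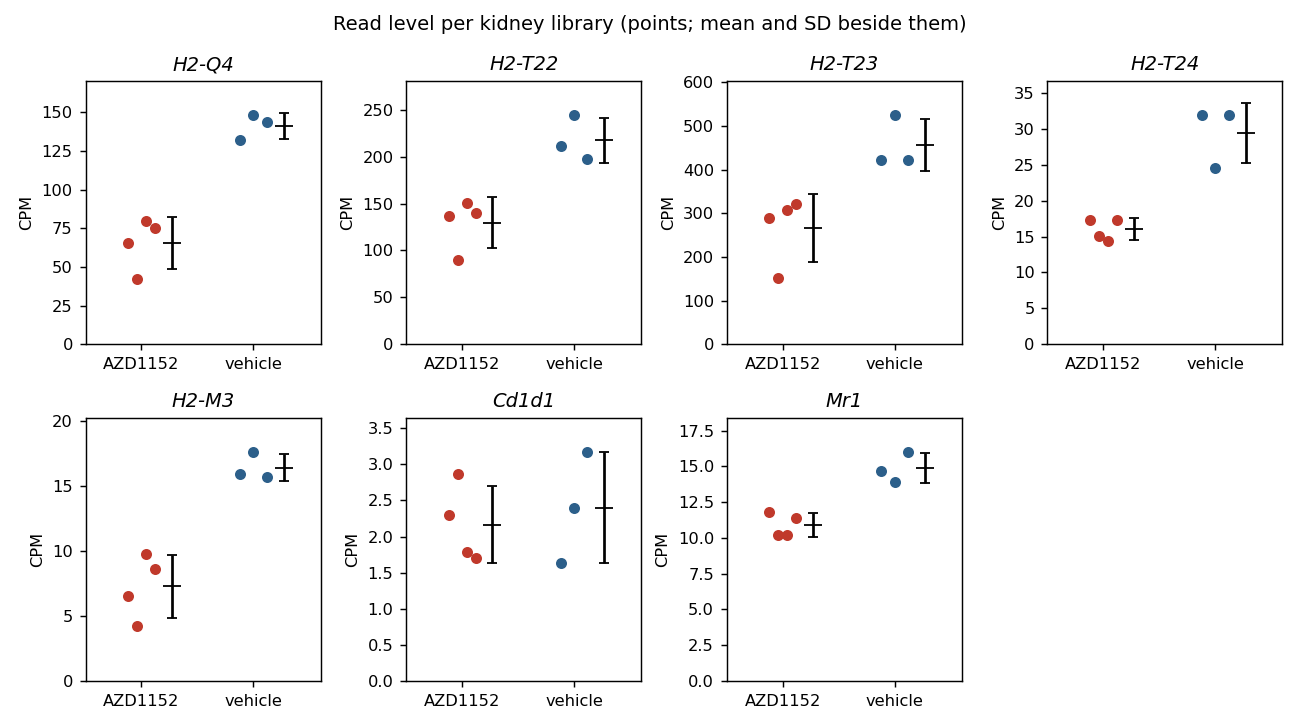
CPM of the 7 tested genes in each kidney library, with a separate linear axis starting at 0 for each gene. Points are single mice (AZD1152 n = 4, vehicle n = 3) and the bars beside them show the mean and SD. All AZD1152 points lie below all vehicle points for every gene except Cd1d1.

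H2-T23, the Qa-1 gene, had the highest reads of the 9. It had 288, 152, 307 and 321 CPM in AZD1152 kidneys, against 422, 524 and 422 CPM in vehicle kidneys. The groups did not overlap, and AZD1152 replicate 2 stood well below the other treated mice. The means were 267 ± 77.6 CPM (SD, n = 4) with AZD1152 and 456 ± 59.2 CPM (SD, n = 3) with vehicle. The log2 fold change was -0.77 ± 0.23 (SE; 95% interval -1.28 to -0.26), and the adjusted p of edgeR's quasi-likelihood test was 0.0722. Without AZD1152 replicate 2, the lowest library, the log2 fold change was -0.59 with an adjusted p of 0.0268 in edgeR. With all libraries, the adjusted p in edgeR was 0.0443 under total-count scaling and 0.0173 without a filter on low counts, and in DESeq2 it was 0.00784. The call therefore depends on the scaling, the filter, the test and that library.

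H2-T22, the gamma-delta T cell ligand, had 137, 90.1, 151 and 140 CPM in AZD1152 kidneys, against 211, 244 and 197 CPM in vehicle kidneys. Replicate 2 was again the lowest treated mouse, and the groups did not overlap. Its mean of 130 ± 27 CPM (SD, n = 4) with AZD1152 was 59.6% of the vehicle mean of 217 ± 24.1 CPM (SD, n = 3). This corresponds to a log2 fold change of -0.75 ± 0.16 (SE; 95% interval -1.12 to -0.38; edgeR adjusted p = 0.0309). The call was lost without AZD1152 replicate 4 and without vehicle replicate 1, 2 or 3, where the edgeR adjusted p was 0.0616, 0.0779, 0.068 and 0.0784. The neighbouring H2-T10 shares 96.5% of coding bases with H2-T22, so that reads of either could be given to the other. H2-T10 had 78, 36, 100 and 68 counts in AZD1152 kidneys, against 155, 166 and 193 counts in vehicle kidneys. Summed with H2-T10, H2-T22 had 8244 counts over the AZD1152 kidneys and 11954 over the vehicle kidneys, and a log2 fold change of -0.76 ± 0.17 (SE; edgeR adjusted p = 0.0304). That sum lost its call without the same 4 libraries, with edgeR adjusted p-values of 0.0613 to 0.0795. An antisense gene, A930015D03Rik, overlaps 1003 exonic bases of H2-T22 and had 0 counts in every library. H2-T10 shares 925 exonic bases with BC023719 on the opposite strand, and the counts of BC023719 were not examined.

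H2-T24, a T region gene with fewer reads, had 17.3, 15.1, 14.4 and 17.3 CPM in AZD1152 kidneys, against 31.9, 24.6 and 31.9 CPM in vehicle kidneys. The treated mice lay close together, and AZD1152 replicate 2 did not stand apart. The means were 16.0 ± 1.49 CPM (SD, n = 4) with AZD1152 and 29.5 ± 4.21 CPM (SD, n = 3) with vehicle. Its log2 fold change was -0.88 ± 0.13 (SE; 95% interval -1.16 to -0.60; edgeR adjusted p = 0.0106). H2-T24 was the member called lower in all 14 alternative analyses.

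In the Q region, H2-Q4 carried nearly all the reads of the 3 members there. It had 65.5, 42.2, 79.5 and 75.1 CPM in AZD1152 kidneys, against 132, 148 and 144 CPM in vehicle kidneys. The vehicle mice lay close together and the treated mice were spread more widely, with replicate 2 lowest. The AZD1152 mean of 65.6 ± 16.6 CPM (SD, n = 4) was 46.4% of the vehicle mean of 141 ± 8.41 CPM (SD, n = 3). In edgeR the log2 fold change was -1.11 ± 0.18 (SE; 95% interval -1.52 to -0.69; edgeR adjusted p = 0.014), and the adjusted p was 0.0562 without vehicle replicate 3. An antisense gene, Gm11131, overlaps 496 exonic bases of H2-Q4 and had 4 counts in each AZD1152 library, against 6 to 8 counts in vehicle libraries.

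The Qa-2 genes were at or near the limit of detection. H2-Q6 had 0 counts in every library, where 3 counts would be 0.181 to 0.213 CPM in AZD1152 libraries and 0.167 to 0.175 CPM in vehicle libraries. H2-Q7 had 0, 1, 0 and 1 counts in AZD1152 kidneys, against 1, 1 and 4 counts in vehicle kidneys. Neither could be tested, and no difference was detectable at this depth. Their coding sequences are 95.1% identical, yet the sum of both was also near the floor, at 2 counts with AZD1152 and 6 with vehicle. MRL mice carry the k haplotype of the MHC while the reference genome carries the b haplotype, and the Q region differs in gene content between haplotypes. The part of that difference in these low counts, or in the levels of the other H2 genes, was not tested.

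H2-M3 had 6.53, 4.25, 9.77 and 8.57 CPM in AZD1152 kidneys, against 15.9, 17.6 and 15.7 CPM in vehicle kidneys. Every treated mouse was below every vehicle mouse, and replicate 2 was the lowest. The AZD1152 mean of 7.28 ± 2.42 CPM (SD, n = 4) was 44.4% of the vehicle mean of 16.4 ± 1.08 CPM (SD, n = 3). The log2 fold change was -1.17 ± 0.24 (SE; 95% interval -1.71 to -0.64; edgeR adjusted p = 0.0242). The edgeR adjusted p was 0.0509 without AZD1152 replicate 4, and 0.0662, 0.0507 and 0.0805 without vehicle replicates 1, 2 and 3.

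The genes outside the MHC had the smallest log2 differences among the tested members. Mr1 had 195, 154, 159 and 161 counts in AZD1152 kidneys, against 252, 243 and 288 counts in vehicle kidneys. After scaling the groups were narrow and apart, with at most 11.8 CPM in AZD1152 kidneys and at least 13.9 CPM in vehicle kidneys, and with means of 10.9 ± 0.831 CPM (SD, n = 4) with AZD1152 and 14.8 ± 1.07 CPM (SD, n = 3) with vehicle. The log2 fold change was -0.45 ± 0.11 (SE; 95% interval -0.70 to -0.20; edgeR adjusted p = 0.0429). The call was lost without each of the 7 libraries in turn, with edgeR adjusted p-values of 0.0555 to 0.173.

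Cd1d1 had 2.3, 2.86, 1.79 and 1.7 CPM in AZD1152 kidneys, against 1.63, 2.4 and 3.17 CPM in vehicle kidneys. The groups overlapped, and these levels rest on 24 to 43 counts in AZD1152 libraries and 28 to 57 counts in vehicle libraries. The means were 2.16 ± 0.533 CPM (SD, n = 4) with AZD1152 and 2.4 ± 0.767 CPM (SD, n = 3) with vehicle. The log2 fold change was -0.15 ± 0.29 (SE; edgeR adjusted p = 0.799), and its 95% interval of -0.81 to 0.51 holds changes as large as those of H2-T22 and H2-T23. Without vehicle replicate 3 the log2 fold change was 0.10. For Cd1d2, 96.5% identical to Cd1d1 in coding bases, the log2 fold change was 0.23 (edgeR adjusted p = 0.863).

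**Figure D2:**
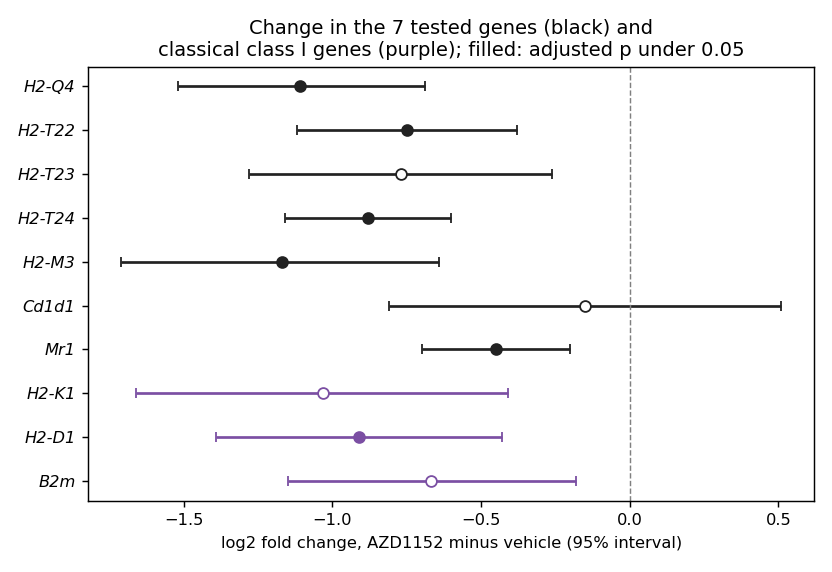
Log2 fold change of AZD1152 over vehicle kidneys (x axis) for the 7 tested genes and, in purple, the classical class I genes H2-K1 and H2-D1 and the light chain gene B2m. Points are edgeR estimates, bars are 95% intervals, and filled points have an adjusted p under 0.05. H2-M3 at -1.17 and H2-Q4 at -1.11 lie farthest left, and the interval of Cd1d1 crosses 0.

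Set per kilobase of exon, the levels of the 9 genes spanned a wide range. H2-T23 was highest, at 92.4 ± 26.9 CPM per kilobase with AZD1152 (SD, n = 4) and 158 ± 20.5 with vehicle (SD, n = 3). H2-T22 followed with mean levels of 37.9 and 63.6 CPM per kilobase in AZD1152 and vehicle kidneys, and H2-Q4 with 25.3 and 54.4. H2-T24 had 7.34 and 13.5, H2-M3 5.06 and 11.4, Mr1 1.82 and 2.48, and Cd1d1 0.841 and 0.933 CPM per kilobase in AZD1152 and vehicle kidneys. H2-T22 was above H2-Q4 in 7 of 7 libraries, although their ranges overlapped across the AZD1152 mice. H2-T24 was above H2-M3 in 5 of 7 libraries and their ranges overlapped in both groups, so these neighbours were not separated. The ranges of all other neighbours among the 7 tested genes were apart in both groups. H2-T23 took 48.1% to 55.7% of the members' counts in AZD1152 libraries, against 50.9% to 53.8% in vehicle libraries, and H2-Q4 took 12.4% to 13.9%, against 15.2% to 17.3%.

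**Figure D3:**
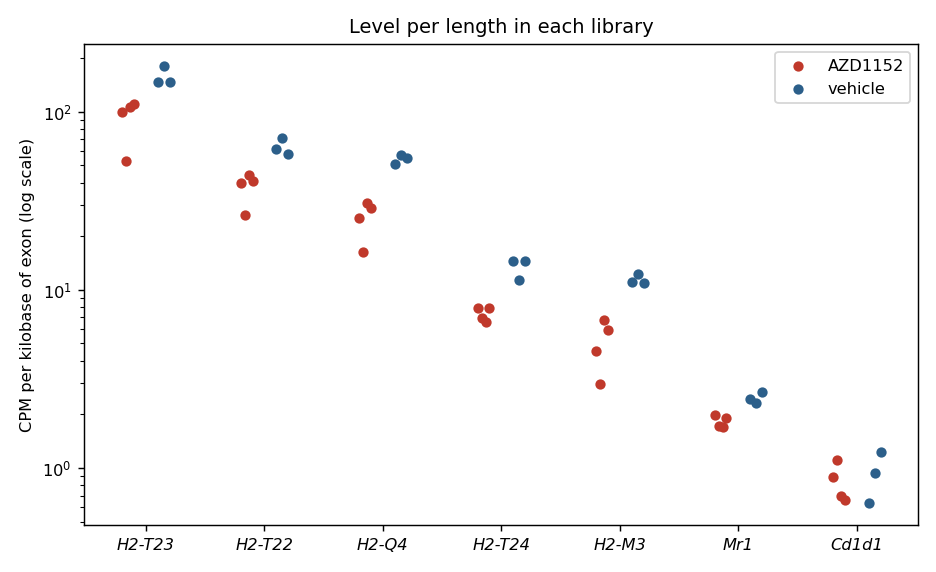
CPM per kilobase of exon (log axis) of the 7 tested genes in each library, ordered by level, with AZD1152 points left of vehicle points. H2-T23 is highest and Cd1d1 lowest in both groups, and the points of H2-T24 and H2-M3 overlap.

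Read sharing limits how far single Q and T genes can be told apart. Windows of 50 bases in the main transcript were matched to other genes on either strand. Of all such windows, 44.7% occurred in another gene for H2-T22, 39.2% for H2-Q4, 29.8% for H2-T23 and 25.8% for Cd1d1. For Cd1d1 the other gene was only Cd1d2. For H2-Q4, 280 of the 684 shared windows occurred in its antisense gene Gm11131. The share was 3.23% for H2-T24, 0.576% for H2-M3 and 0% for Mr1. H2-T24, H2-M3 and Mr1, with few or no shared windows, were called lower in the main fit, but only H2-T24 kept its call in all 14 alternatives. The part of read sharing in the levels of the other members was not tested. With windows of 100 bases the shares were 14.2% for H2-T22, 13.9% for H2-Q4, 7.28% for H2-T23 and 14.6% for Cd1d1. For H2-Q4, 188 of the 236 shared windows of 100 bases occurred in Gm11131. No class I gene was among those sharing most of the windows of 100 bases, but genes sharing fewer were not examined. With windows of 50 bases H2-Q6 came next after Gm11131, so sharing with other Q or T genes remained possible.

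H2-K1, H2-D1 and B2m had negative log2 fold changes too, and 1 of the 3 was called. H2-K1, a classical heavy chain gene, had 406, 229, 606 and 495 CPM in AZD1152 kidneys, against 811, 1060 and 794 CPM in vehicle kidneys, with a log2 fold change of -1.03 ± 0.28 (SE; edgeR adjusted p = 0.054). H2-D1, the other classical heavy chain gene, fell by 0.91 on a log2 scale (edgeR; adjusted p = 0.038). B2m, the light chain gene, had a log2 fold change of -0.67 ± 0.22 (SE; edgeR adjusted p = 0.0923). To compare each member with the classical genes within a library, the log2 ratio of its counts to those of H2-K1 plus H2-D1 was taken. H2-K1 gave most of that sum, with 26629 and 46751 counts over the AZD1152 and vehicle kidneys, against 1822 and 2931 for H2-D1. The AZD1152 minus vehicle difference of this ratio was -0.05 for H2-Q4, -0.14 for H2-M3, 0.23 for H2-T24, 0.28 for H2-T23, 0.33 for H2-T22, 0.65 for Mr1 and 0.97 for Cd1d1. The groups overlapped for all 7, and in two-sided exact permutation tests p was 0.114 to 0.743 (adjusted over the 7 tests, 0.24 to 0.743). With 4 against 3 libraries such a test cannot go below 0.0571, so it could not have passed the threshold. For Cd1d1 the log2 ratio was -7.54, -6.42, -8.47 and -8.25 in AZD1152 kidneys, against -9.03, -8.85 and -8.05 in vehicle kidneys. With B2m in place of the classical genes all 7 differences were lower by the same amount, since all genes share the denominator. Those of H2-T22, H2-T23 and H2-T24 changed sign, to -0.07, -0.12 and -0.17, and those of H2-Q4 and H2-M3 were -0.45 and -0.53. Mr1 was then at 0.25 and Cd1d1 at 0.57. Leaving out 1 library, with the classical genes as denominator, gave 0.41 to 0.87 for Mr1 and 0.56 to 1.27 for Cd1d1.

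**Figure D4:**
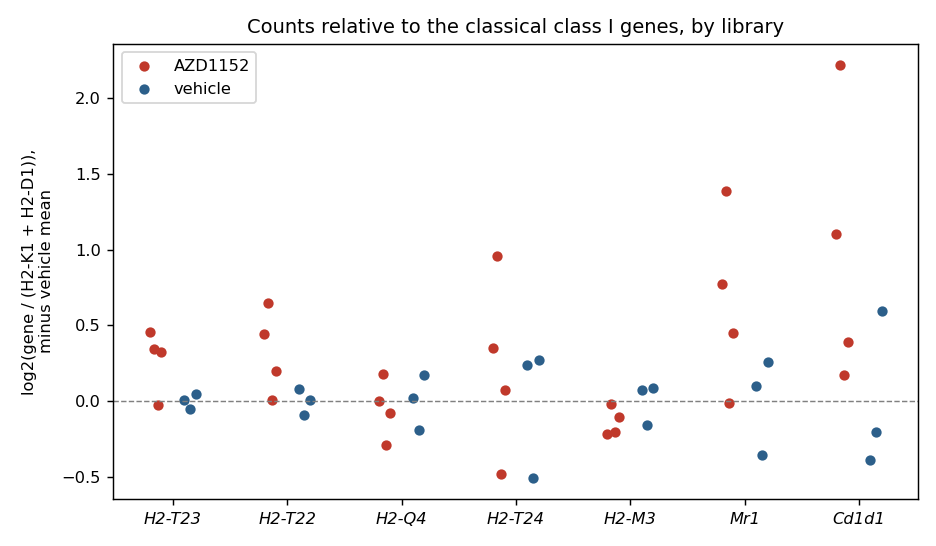
Log2 ratio of each tested gene's counts to the summed counts of H2-K1 and H2-D1 in each library, minus the vehicle mean of that gene, with AZD1152 points left of vehicle points. The groups overlap for all 7 genes. The AZD1152 points of Cd1d1 are the most spread (SD 0.92), followed by those of H2-T24 (0.6) and Mr1 (0.59).

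Most of the genes that load class I molecules were also lower. Of 8 tested genes of peptide loading 5 fell and 0 rose, with a median log2 fold change of -0.66, against -0.001 over all genes tested. The chaperone genes Canx, Pdia3 and Calr were not called and had positive log2 fold changes of 0.29, 0.22 and 0.17. The summed level of the 8 genes overlapped, at 2670 to 3140 CPM in AZD1152 kidneys, against 2540 to 3010 CPM in vehicle kidneys. Tap1, a subunit of the peptide transporter, had 59.1, 28.4, 52.2 and 57.4 CPM in AZD1152 kidneys, against 99.3, 148 and 109 CPM in vehicle kidneys. Its log2 fold change was -1.27 ± 0.24 (SE; edgeR adjusted p = 0.02). Tap2, its partner, fell by 0.92, Tapbp (tapasin), which bridges the transporter and class I, by 0.75, and Erap1, a peptidase that trims peptides, by 0.60 on a log2 scale (edgeR; adjusted p = 0.0206, 0.0175 and 0.0274). All 5 immunoproteasome genes tested fell, with a median log2 fold change of -1.14. Psmb9 and Psmb10, catalytic subunits, fell by 1.23 and 1.14 on a log2 scale (edgeR; adjusted p = 0.025 and 0.00965). Psmb9 and Tap1 share 212 exonic bases on opposite strands, and exons of Tap2, Tapbp and Erap1 overlap other annotated genes, so that some of their reads may belong to a neighbour.

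Of 7 regulators of class I genes 3 fell and 0 rose, with a median log2 fold change of -0.33. Nlrc5, the class I transactivator, had 27.9, 14.2, 29.4 and 33.4 CPM in AZD1152 kidneys, against 63.4, 69.2 and 65.6 CPM in vehicle kidneys. AZD1152 replicate 2 was lowest here too, and the log2 fold change was -1.33 ± 0.23 (SE; edgeR adjusted p = 0.0159). Irf1, an interferon-induced transcription factor, fell by 0.91 on a log2 scale (edgeR; adjusted p = 0.0381). For Rfx5, a subunit of the complex that binds class I and class II promoters, the log2 fold change was -0.33 (edgeR adjusted p = 0.197). Among 11 tested genes of lipid loading and lysosomal lipid handling, the step that serves CD1d, 1 fell and 1 rose, with a median log2 fold change of 0.11. Ctss, a lysosomal protease, fell by 1.10 on a log2 scale (edgeR; adjusted p = 0.0197). Lipa, the lysosomal acid lipase, rose by 0.76 (edgeR adjusted p = 0.0304).

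On the side of the receptors, 3 of 7 tested genes fell and 0 rose, with a median log2 fold change of -1.17. Klrc1 encodes NKG2A, a receptor chain for Qa-1, and had 0.484, 0.332, 0.383 and 0.496 CPM in AZD1152 kidneys, against 1.63, 1.83 and 2.0 CPM in vehicle kidneys. The groups were far apart, but these levels rest on 26 counts in all over the AZD1152 kidneys and 96 over the vehicle kidneys. The log2 fold change was -2.08 ± 0.28 (SE; edgeR adjusted p = 0.00951). Klrc2, a close relative that could share reads, had 19 counts over the AZD1152 kidneys and 44 over the vehicle kidneys and was not tested. Klrd1, which encodes the partner chain CD94, had a log2 fold change of -0.89 ± 0.24 (SE; edgeR adjusted p = 0.0566). Klrk1 (NKG2D, an activating receptor for stress-induced ligands) and Pirb (an inhibitory receptor for class I) fell by 1.17 and 1.39 on a log2 scale (edgeR; adjusted p = 0.0391 and 0.0352).

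Markers of the T cells that recognise these molecules were, with 1 exception, barely measurable. Of 8 such genes 1, Zbtb16, could be tested, with a log2 fold change of -0.66 ± 0.78 (SE; edgeR adjusted p = 0.658). Its means were 20.8 ± 20.7 CPM (SD, n = 4) with AZD1152 and 32.9 ± 22.2 CPM (SD, n = 3) with vehicle. Which kidney cells gave the Zbtb16 reads was not tested, so they are not a measure of these T cells. Trdc, the constant segment of the delta chain, had 1, 2, 1 and 4 counts in AZD1152 kidneys, against 5, 11 and 8 counts in vehicle kidneys. Trav11 and Trav1, the alpha chain segments of invariant natural killer T cells and mucosal-associated invariant T cells, had 0 counts in every library.

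Other class Ib genes were mostly sparse. Of 19 others in the table, 8 had 0 counts in every library and 6 could be tested, of which H2-T10 fell by 1.09 on a log2 scale (edgeR; adjusted p = 0.0439) and 0 rose. H2-M2 was at a level near that of H2-M3. Its means were 7.23 ± 3.81 CPM (SD, n = 4) with AZD1152 and 14.3 ± 4.96 CPM (SD, n = 3) with vehicle. The groups overlapped for H2-M2, with a log2 fold change of -0.99 ± 0.4 (SE; edgeR adjusted p = 0.166). Among 5 tested genes with a class I fold outside the MHC, 0 were called. Fcgrt, which encodes the neonatal Fc receptor, had a log2 fold change of 0.27 ± 0.07 (SE; edgeR adjusted p = 0.0539). For Hfe, an iron regulator, the log2 fold change was -0.58 (edgeR adjusted p = 0.0641).

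Markers of T cells and macrophages, cytotoxic genes and interferon-induced genes moved with the members. The 13 interferon-induced genes had a summed level of 407 to 882 CPM in AZD1152 kidneys, against 1190 to 1990 CPM in vehicle kidneys, and 7 fell and 0 rose. The 6 T cell markers summed to 11.4 to 27.6 CPM in AZD1152 kidneys, against 43.2 to 76.2 CPM in vehicle kidneys, with 4 of 6 lower. The 7 macrophage markers summed to 221 to 364 CPM, against 494 to 598 CPM in vehicle kidneys, with 5 of 7 lower. Of the cytotoxic and natural killer cell markers, 2 of 4 tested fell, with sums of 6.04 to 13.2 CPM in AZD1152 kidneys, against 20.6 to 36.4 CPM in vehicle kidneys. The natural killer cell genes Ncr1 and Klrb1c were too sparse to test and were not lower. They had 19 and 9 counts over the AZD1152 kidneys, against 10 and 7 over the vehicle kidneys. In these 4 lists AZD1152 replicate 2 had the lowest sum, as it had for the members, at 317 CPM, against 528 to 575 CPM in the other treated mice and 829 to 975 CPM in vehicle mice. No marker of these 4 lists was at 0 in every library. Dendritic cell markers had 0 lower and 1 higher of 6 tested (Siglech), with sums of 30.6 to 44.4 CPM in AZD1152 kidneys, against 47.8 to 60.1 CPM in vehicle kidneys. The B cell markers overlapped between groups, at 21.5 to 504 CPM with AZD1152 and 114 to 782 CPM with vehicle, and 0 of 6 tested were called. Of 7 endothelial markers 0 were called, with sums of 396 to 428 CPM in AZD1152 kidneys, against 346 to 463 CPM in vehicle kidneys. The part of leukocyte number and interferon signalling in the lower levels of the members was not tested. Of the fat markers, Adipoq and Lep had 0 counts in every library.

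The genes most like a member across the 7 libraries were found by the root-mean-square difference of log2 CPM. Each gene was centred on its own mean. The search covered 12407 tested genes averaging 2 CPM or more. Genes with a Gm, Rik, AC, AL, BC or LOC name or only an Ensembl identifier were left out. For H2-T23 the nearest genes were Bst2 at 0.095, Irf1 at 0.098 and H2-T22 at 0.127, where the median gene differed by 0.56. For H2-M3 they were Arhgap4 at 0.104, H2-Aa at 0.106 and H2-Q4 at 0.107, with a median of 0.72. Bst2 (tetherin) is an interferon-induced membrane protein, and H2-Aa is an MHC class II chain. Those near Mr1 included Slc20a1 at 0.046 and Sh2d3c at 0.049, with a median of 0.30. For Cd1d1 they were Cnbd2 at 0.112, Vangl2 at 0.138 and Cand2 at 0.138, with a median of 0.38. The 7 points include both groups, so a shared difference between the groups counts toward likeness.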

How the data were processed

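Poly(A) RNA of renal tissue was selected and made into TruSeq libraries from randomly primed cDNA, per the labels' protocols. Per the submitters' processing notes, CASAVA, HISAT2 2.0.5, DESeq2 and DESeq were used with GRCm38. How reads were counted, with which strand setting and annotation, is not given in the sources used here. Reads of a gene and its antisense partner therefore cannot be separated. The deposited values are raw whole-number counts per gene, and how reads of near-identical genes were assigned is not given.

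Sample titles gave the groups, and each library is a separate mouse by the series text. Names and coordinates came from GENCODE mouse release 21 (GRCm38), which named 53274 of 53465 genes, and promoters from RefSeq (GRCm38.p6). Of 161 list genes 158 were in the table. The members, lists and motifs were chosen with earlier results of these data known. The interferon regulatory factor consensus was searched after the promoter letters had been seen.

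After filterByExpr and TMM scaling, edgeR 4.0.16 (R 4.3.3) tested the counts by its quasi-likelihood test on group alone, two-sided, with Benjamini-Hochberg adjustment over 15774 genes and a threshold of 0.05. CPM are TMM-scaled. Ratios used a pseudocount of 0.5 and scipy 1.17.1. The steps were tested on simulated counts. Over 21 library pairs, chi-square per degree of freedom was at least 9.97, so no libraries agreed within sampling noise. The floor of 3 counts covers counting error only. Named genes were the members, up to 4 genes per list with the smallest p, and the 3 genes most like H2-T23, H2-M3, Cd1d1 and Mr1. Of the genes this rule names, 2 are not reported here. H2-Ea-ps, Gm11131, A930015D03Rik and BC023719 were chosen after their values or overlaps were seen. Cd1d2, Klrc2, Trdc, Trav11, Trav1, Adipoq and Lep were also named after their values were seen. The same holds for Canx, Pdia3, Calr, Ncr1 and Klrb1c. Alternatives were RLE, upper-quartile and total-count scaling, no filter, a stricter filter, DESeq2 1.42.0, a replicate block, summed near-identical genes, other ratio denominators and each library left out.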

Additional observations from a re-analysis of the deposited data

How the results depend on the processing

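Of the 7 members, H2-Q4, H2-T22, H2-T23, H2-T24, H2-M3 and Mr1 had a negative log2 fold change under all 14 alternatives. Cd1d1 turned to 0.10 without vehicle replicate 3, and its values with 1 library left out ran from -0.36 to 0.10. The genes called lower numbered 1482 with total-count scaling and 1183 with DESeq2, and those called higher 232 and 950. H2-T23 passed the threshold under total counts (adjusted p = 0.0443, edgeR), no filter (0.0173, edgeR) and DESeq2 (0.00784), and Mr1 missed it without a filter (0.0635, edgeR). Leaving out 1 library gave 163 to 619 lower genes, 60 to 475 higher genes, 1 to 5 members lower and -0.85 to -0.63 for H2-T22 summed with H2-T10. The ratio to the classical genes then ran from -0.14 to 0.04 for H2-Q4 and from -0.03 to 0.46 for H2-T24, and with B2m as denominator it was -0.07 for H2-T22, -0.12 for H2-T23 and -0.17 for H2-T24. That change of denominator lowers all 7 by the same amount. The cause of the other changes was not tested. The sum of H2-Q6 and H2-Q7 had too few counts to be tested.

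The deviations of same-numbered mice from their group means had correlations of -0.288, 0.209 and -0.119. With 4 and 3 libraries these values cannot decide on a pairing, and the labels state none. With the replicate block 146 genes were lower, 63 higher and 1 member, H2-T24, was lower, and H2-T22 summed with H2-T10 had a log2 fold change of -0.83 (adjusted p = 0.0925, edgeR).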

Other observations

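H2-Ea-ps, annotated as a pseudogene in the reference strain, had 199, 114, 315 and 283 CPM in AZD1152 kidneys, against 444, 498 and 348 CPM in vehicle kidneys. Its log2 fold change was -0.92 ± 0.30 (SE; edgeR adjusted p = 0.0927), and it was chosen after its values were seen.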
